A study of Arabidopsis thaliana with 126 samples.

Results

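The comparison described here is that of etiolated Arabidopsis seedlings of the double mutant ein6-1 een-1 with seedlings of their parent accession Ler, both kept in air. It rests on 4 of the 126 samples of the series, which are all the RNA libraries of these 2 genotypes in air, with 2 libraries for ein6-1 een-1 and 2 for Ler. The seedlings were 3 days old and grown in the dark in air freed of hydrocarbons, and the study calls the libraries of a genotype biological replicates. Values of ein6-1, een-1 and ein2-45 in air, of ein6-1 een-1 and Ler after 4 hr of ethylene gas (ET), and of een-2 and Col-0 in air (2 libraries each) are set beside the comparison where they bear on it.

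The double mutant came from a fast-neutron screen in Ler (Landsberg erecta), and both lesions stand for 1 allele of their gene. The ein6-1 lesion is a small deletion in the fifth exon of EIN6, also called REF6, that leads to an early stop codon. The een-1 lesion is an inversion near the end of chromosome 4, with a break in the 5′ untranslated region of EEN and another in the fourth intron of the gene AQI, so that een-1 also damages a second gene. The single mutants were derived from the same screen line. The line ein2-45 carries a point mutation near the C-terminal end of EIN2 and is insensitive to ET, and een-2 is an insertion allele of EEN in the accession Col-0.

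EIN6/REF6 encodes a demethylase that removes trimethyl marks from lysine 27 of histone H3 (H3K27me3), a mark of Polycomb repression. EEN encodes the plant counterpart of the yeast protein Ies6, a subunit of the nucleosome remodelling complex INO80, which acts on nucleosomes with the histone variant H2A.Z. EIN2 encodes the membrane protein that carries the ET signal from the receptors and the kinase CTR1 to the transcription factors EIN3 and EIL1, and etiolated seedlings without its activity do not show the short, thick hypocotyl and tight apical hook of the ET response.

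EIN2 (At5g03280) spans chr5:787428-793404 of TAIR10.1, on the plus strand, in 8 exons. REF6 reads DNA through zinc fingers that are known to bind the 8-base words CTCTGCTC, CTCTGCTT, CTCTGTTC and CTCTGTTT. A search of both strands of the 5977-base gene found 4 such words, all on the plus strand, and each is shown here with 11 bases on either side because EIN2 is the gene whose loss of RNA the rest of the report returns to; capitals mark the word, and the sequences are those of the TAIR10.1 reference, not of Ler.
EIN2 site 1: aaaccctaatcCTCTGTTTttttttttatt
EIN2 site 2: ggtggcaattaCTCTGCTTttcaattttgc
EIN2 site 3: tcagtacaccaCTCTGCTTgtatcgtcatg
EIN2 site 4: tttgattgctcCTCTGCTTcgttaattgtg
Site 1 (chr5:787612-787641) is in intron 1, within the 5′ untranslated region. Site 2 (chr5:788744-788773) and site 3 (chr5:790415-790444) are in coding sequence, in exon 2 and exon 7, and site 4 (chr5:793142-793171) is in the 3′ untranslated part of exon 8. Such words are common: of 32825 windows of the same length that start at annotated genes, 81.9% hold at least 1, the median is 2, and 19.3% hold 4 or more. A word in the sequence is a description and no measure of binding. The study counts 2 of these words in the region of the 5′ intron, where the search placed site 1 only. It also reports binding of EIN6 in that intron and in the gene body, which it calls relatively weak.

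Levels are given as rescaled TPM (a share of all transcripts, scaled to a fixed sum), which is the deposited TPM divided by a factor for each library that brings the median gene to the same level. The factors were 1.141 and 1.075 in ein6-1 een-1 and 0.8102 and 0.8948 in Ler. Ribosomal RNA took 3.34% and 6.16% of the TPM in the ein6-1 een-1 libraries and 16.1% and 11.6% in the Ler libraries, so that the rRNA share moves with the genotype; the part that this has in a difference was not tested beyond the rescaling. Between 22042 and 22132 genes were above 0 in each of the 4 libraries, and replicates correlated at 0.9874 in ein6-1 een-1 and 0.9869 in Ler over log2 levels of all tested genes. The values hold no read counts, so library depth is unknown and precision rests on the replicates alone. As these are whole seedlings, fewer cells of a type and less RNA per cell cannot be told apart.

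A large share of the genes measured in these seedlings differed between the genotypes, in both directions and mostly by less than 2-fold. Of 20592 genes tested, 3584 (17.4%) were higher and 4079 (19.8%) lower in ein6-1 een-1 at an adjusted p below 0.05, 37.2% in all (limma, a linear model that shares variance between genes, Benjamini-Hochberg adjustment over all genes). At least 2-fold higher were 854 of these genes and at least 2-fold lower 1054; at 4-fold the counts were 173 and 143, and at 8-fold 19 and 32. The median log2 difference over all genes was -0.0006 and the median size 0.34. The levels of the 2 genotypes did not overlap in 73.3% of the genes tested, so that lack of overlap alone is common here.

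The direction of the weak changes depends on the rescaling. On the TPM as deposited the median log2 difference of all genes was 0.33, and 5862 genes were higher and 1297 lower, so that 81.9% of the calls were higher in ein6-1 een-1, against 46.8% after rescaling. All log2 differences that follow are after rescaling, relative to that shift. The count of higher genes was 2337 without Ler replicate 1, 2360 without ein6-1 een-1 replicate 1 and 2281 without ein6-1 een-1 replicate 2, where the single library left in a genotype is assumed to vary like the other groups.

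**Figure D1:**
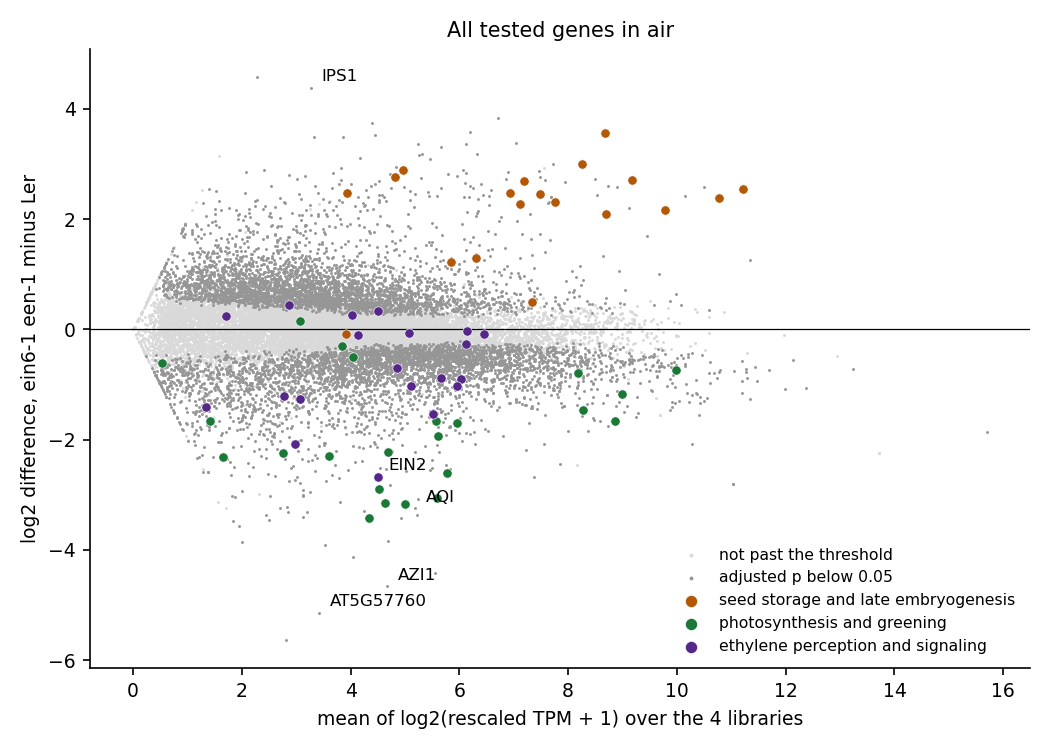
Log2 difference between ein6-1 een-1 and Ler in air (y axis) against the mean log2 level over the 4 libraries (x axis, rescaled TPM plus 1), with 1 point for each of the 20592 genes tested. Dark grey points passed an adjusted p of 0.05, and coloured points are members of 3 gene lists: most seed genes lie near or above 2 and most photosynthesis genes below -1.

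The RNA of the 2 mutated genes does not check the genotypes. EIN6 (At3g48430) had 9.11 and 9.04 rescaled TPM in ein6-1 een-1 and 5.87 and 6.33 in Ler, and the log2 difference of 0.51 did not pass (adjusted p = 0.082). EEN (At4g38495) had 24.9 and 30.6 rescaled TPM in ein6-1 een-1 and 27 and 24.3 in Ler (log2 difference 0.10, adjusted p = 0.75), and its levels overlapped; reads from the AQI-EEN fusion can be counted for either gene. The gene at the other break was low: AQI (At4g38220) had 9.58 and 12.2 rescaled TPM in ein6-1 een-1 against 112 and 110 in Ler (log2 difference -3.25, adjusted p = 1.3e-09). The log2 difference of AQI from Ler was -3.0 in een-1 and 0.17 in ein6-1, so that its level fits the labels of the lines with and without the inversion.

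Between the breaks genes moved in both directions. The span from AQI to EEN, with both genes whole, covers 82892 bases (chr4:17925180-18008071), and the inversion ends within AQI and EEN. Of the genes between them 27 were tested: 6 were higher, 7 lower and 14 did not pass. Their median log2 difference was -0.05 (all genes: 17.4% higher, 19.8% lower, median -0.0006). EXLA2, an expansin-like gene, had 26.2 and 28.6 rescaled TPM in ein6-1 een-1 and 86.7 and 75.0 in Ler (log2 difference -1.52, adjusted p = 1e-06). IYO, which encodes a protein associated with RNA polymerase II, had 9.15 and 9.33 rescaled TPM in ein6-1 een-1 and 3.74 and 3.32 in Ler (log2 difference 1.18, adjusted p = 0.0011). These 2 genes had the lowest and the highest log2 difference among the genes inside that passed.

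**Figure D2:**
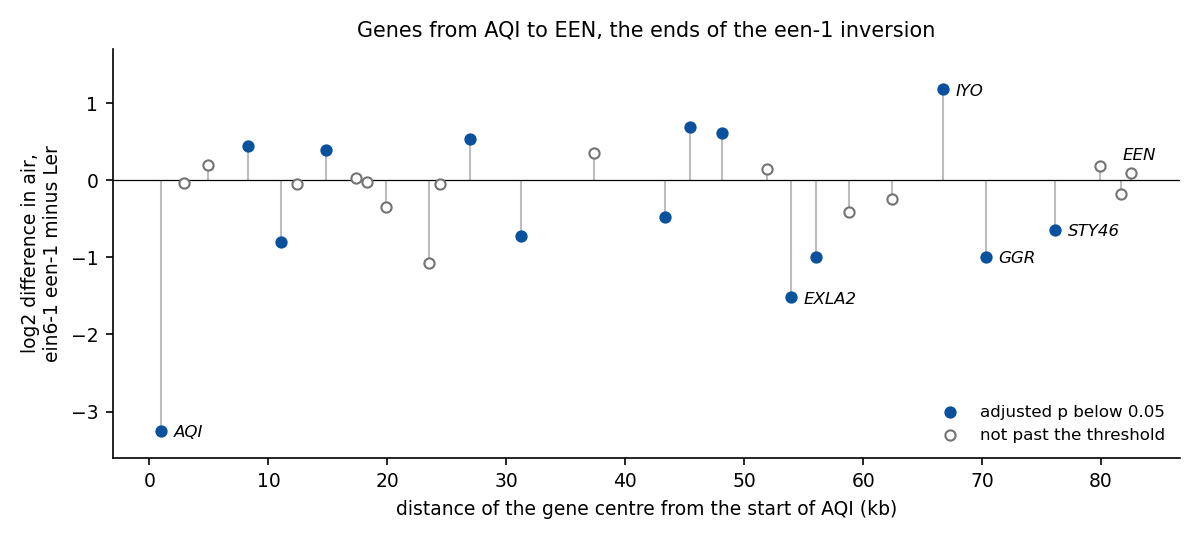
Log2 difference between ein6-1 een-1 and Ler in air (y axis) for the 29 tested genes from AQI to EEN, placed by the distance of each gene's centre from the start of AQI (x axis, kb). Filled points passed an adjusted p of 0.05; AQI at -3.25 lies well below the genes inside the interval, which spread on both sides of 0.

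EIN2 RNA was far lower in the double mutant than in Ler or in the other mutants measured beside it in air. EIN2 had 8.22 and 7.66 rescaled TPM in ein6-1 een-1 against 54.4 and 57.2 in Ler, so that 14.2% of the Ler level was left, a 7.03-fold decrease (log2 difference -2.67 with a standard error of 0.20, adjusted p = 3.4e-07). In ein6-1 EIN2 had 65.3 and 59.8 rescaled TPM, in een-1 it had 48.6 and 43.3, and in ein2-45 43.0 and 42.5. The differences of these lines from Ler did not pass (log2 0.16, -0.28 and -0.38, adjusted p = 0.69, 0.32 and 0.19). All 6 of their libraries lay above both of ein6-1 een-1, and the direct differences of ein6-1 een-1 were -2.83 from ein6-1, -2.39 from een-1 and -2.29 from ein2-45 on the log2 scale. The non-additivity, which is the difference of ein6-1 een-1 from ein6-1 minus that of een-1 from Ler and is 0 where the log2 effects of the 2 lesions add up, was -2.55 (adjusted p = 1.5e-05).

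Of 13 genes of ET synthesis, 2 were higher and 7 lower in ein6-1 een-1, beside 17.4% of all genes higher and 19.8% lower; the median log2 difference was -0.54, and -0.18 on the TPM as deposited. ACC synthases (ACS) make the precursor ACC and ACC oxidases (ACO) turn it into ET. ACO4 had 13.4 and 17.0 rescaled TPM in ein6-1 een-1 and 119 and 124 in Ler (log2 difference -2.92, adjusted p = 8e-08). ACO4 fell, as did the oxidase gene ACO5 (-1.19) and the synthases ACS5 (-1.44), ACS8 (-1.31) and ACS9 (-1.62). ACS9 was also lower in ein6-1 (-1.96) and in ein2-45 (-2.07), in comparisons that share the Ler libraries. ACS7 went the other way, with 11.2 and 8.56 rescaled TPM in ein6-1 een-1 and 3.33 and 4.21 in Ler (log2 difference 1.18, adjusted p = 0.00027). ACS6 also rose (0.40, adjusted p = 0.017), a call that was lost without Ler replicate 2 and without either ein6-1 een-1 library (log2 differences 0.36 to 0.41).

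Among 20 genes of ET perception and signaling, 11 were lower and 1 higher, beside 19.8% of all genes lower and 17.4% higher. Their median log2 difference was -0.79. On the TPM as deposited 7 were lower and 2 higher, with a median of -0.42. The receptor gene ETR2 had 2.97 and 2.72 rescaled TPM in ein6-1 een-1 and 14.8 and 15.9 in Ler (log2 difference -2.09, adjusted p = 3.8e-07). The receptor genes ERS1 and ERS2 fell too, by 0.90 and 1.21 on the log2 scale, as did RTE1, which acts with the receptor ETR1 (-1.27). ETR1 itself (-0.10) and EIN4 (0.26), the other 2 receptor genes, did not pass. CTR1, the kinase that holds EIN2 inactive, fell by 0.70.

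Downstream of EIN2 the members were split. EBF2, which encodes an F-box protein that marks EIN3 for breakdown, had 24.6 and 27.3 rescaled TPM in ein6-1 een-1 and 83.1 and 71.6 in Ler (log2 difference -1.54, adjusted p = 9.6e-06). EBF1, its close relative, did not pass (-0.03). EIL1 had 35.3 and 37.6 rescaled TPM in ein6-1 een-1 and 65.0 and 70.8 in Ler (log2 difference -0.88), whereas EIN3 had 83.7 and 83.1 in ein6-1 een-1 and 86.4 and 91.3 in Ler (log2 difference -0.09, adjusted p = 0.54). The calls of EIL1, ERS1 and CTR1 were lost on the TPM as deposited, with log2 differences of -0.51, -0.52 and -0.33. The member that rose, ETP1, which encodes an F-box protein that targets EIN2 (0.33, adjusted p = 0.025), lost its call without Ler replicate 1 (0.26) and without ein6-1 een-1 replicate 2 (0.24).

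Transcription factor genes tied to ET followed the same direction. Of 16 tested, 10 were lower and 1 higher, with a median log2 difference of -0.66, beside 19.8% of all genes lower. On the TPM as deposited 6 were lower and 1 higher, with a median of -0.40. RAP2.3, an ERF gene, had 20.1 and 23.7 rescaled TPM in ein6-1 een-1 and 100 and 113 in Ler (log2 difference -2.23, adjusted p = 1.3e-06). TEM1, of the RAV family, had 14.0 and 14.5 in ein6-1 een-1 and 58.0 and 52.5 in Ler (log2 difference -1.88, adjusted p = 5.7e-07), and EDF3 of the same family had 10.4 and 11.6 in ein6-1 een-1 and 36.6 and 39.9 in Ler (log2 difference -1.71, adjusted p = 1.5e-07). In ein2-45, which shares the Ler libraries, 11 of the 16 were lower and 0 higher, where 11.6% of all genes were lower. Set directly against ein2-45, where 39.6% of all genes differed, 18.5% higher and 21.1% lower in ein6-1 een-1, 4 of these 16 genes and 4 of the 20 perception and signaling genes were higher and 2 of each list lower. ETR2 was among those higher in ein6-1 een-1 than in ein2-45 (log2 difference 1.13, adjusted p = 4.6e-05).

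**Figure D3:**
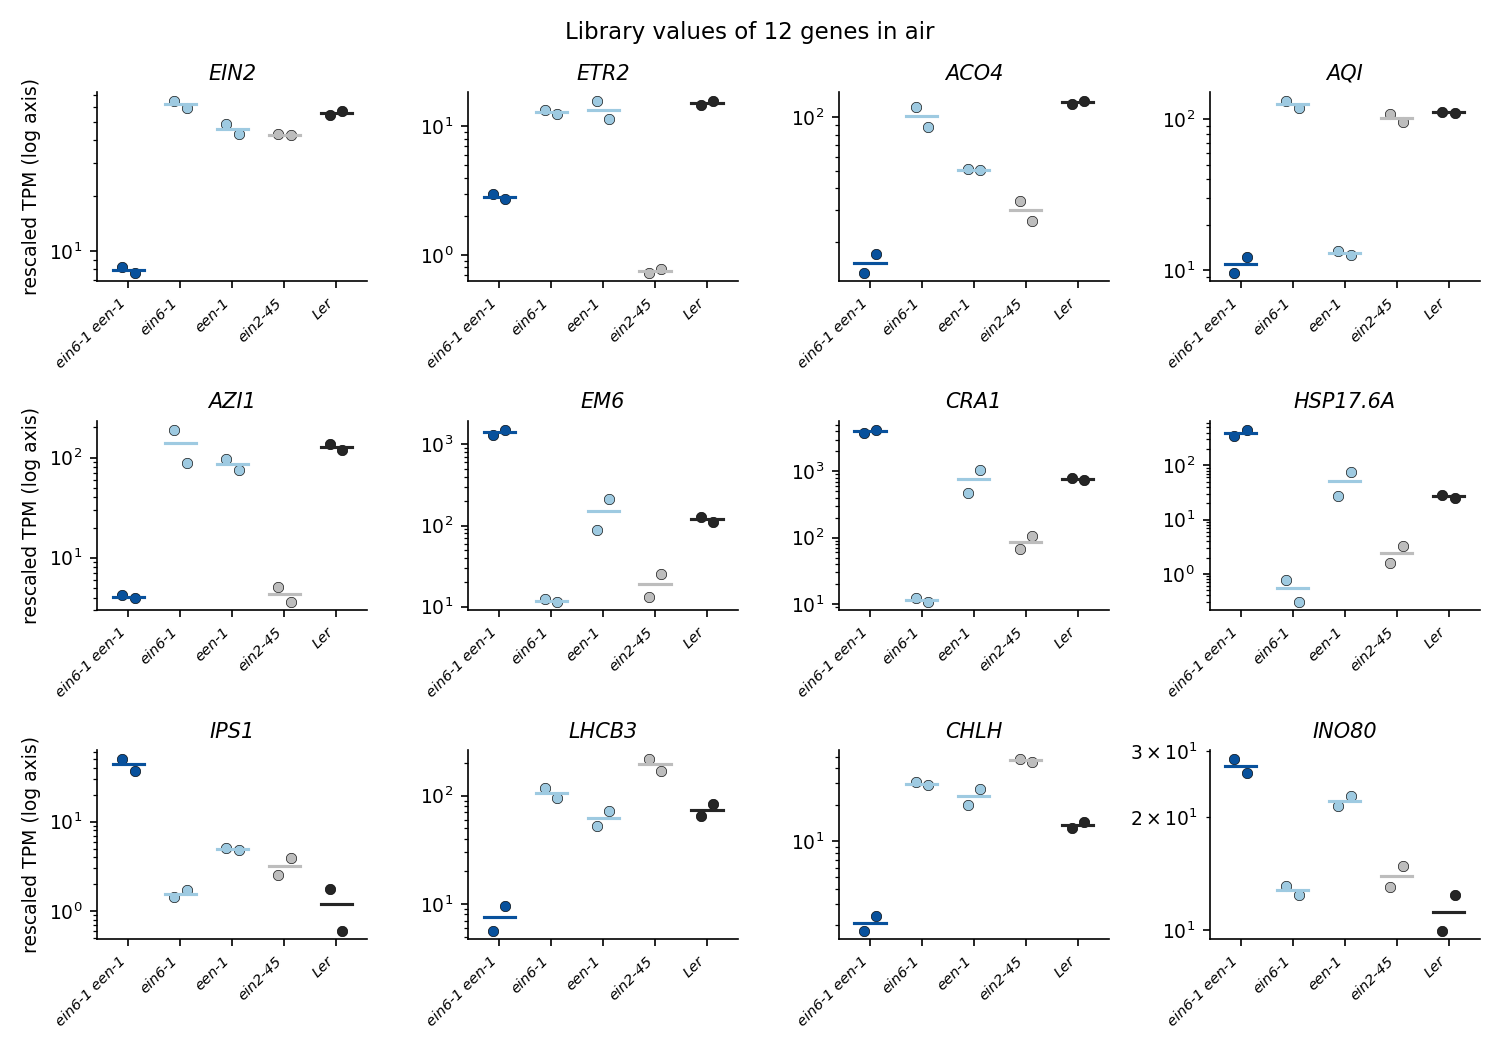
Rescaled TPM in air (y axes, logarithmic) of 12 genes in the double mutant, each single mutant, ein2-45 and Ler, with 1 point for each library and a bar at the mean of the 2. EIN2 is low in ein6-1 een-1 only among these genotypes, AQI is low in both lines with the inversion, and EM6, CRA1 and HSP17.6A are lower in ein6-1 than in Ler but higher in ein6-1 een-1.

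Genes of the maturing seed were high in the double mutant. The list of seed storage and late embryogenesis genes has 23 members, of which 19 passed the minimum of 1 TPM; FUS3, LEC1, LEC2 and DOG1 did not. Of the 19, 17 were higher in ein6-1 een-1 and 0 lower, with a median log2 difference of 2.45, beside 17.4% of all genes higher. EM6, a late embryogenesis abundant protein, had 1310 and 1520 rescaled TPM in ein6-1 een-1 and 127 and 111 in Ler (log2 difference 3.56, adjusted p = 1.4e-06). CRA1, a 12S storage globulin, had 3800 and 4230 in ein6-1 een-1 and 795 and 740 in Ler (log2 difference 2.38, adjusted p = 5.1e-05). RAB18, a dehydrin, had 1380 and 1590 in ein6-1 een-1 and 234 and 216 in Ler (log2 difference 2.72). The oil body gene OLEO1 had 386 and 451 in ein6-1 een-1 and 79.4 and 71.9 in Ler (log2 difference 2.45), and ABI3, a transcription factor of seed maturation, had 37.3 and 33.2 in ein6-1 een-1 and 5.11 and 5.88 in Ler (log2 difference 2.48, adjusted p = 3.7e-06). The 2S albumin genes SESA3 (0.49, adjusted p = 0.48) and SESA4 (-0.08, adjusted p = 0.89) did not pass; the 2S albumin genes are close copies, and how their reads were shared out is uncertain.

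The single mutants stood on the other side of Ler or near it. In ein6-1, where 6.75% of all genes differed from Ler, 2.65% higher and 4.1% lower, all 19 tested seed genes were lower, with a median log2 difference of -3.21, and CRA1 had 12.5 and 10.9 rescaled TPM. In ein2-45, where 11.6% of all genes were lower, 17 of the 19 were lower, and CRA1 had 67.9 and 105 rescaled TPM. In een-1, where 10.7% of all genes were higher, 1 of the 19 was higher and 0 lower; CRA1 had 477 and 1030 rescaled TPM in the 2 een-1 libraries, a wide spread that other seed genes shared (EM6 89.2 and 211). Directly compared, ein6-1 een-1 exceeded een-1 in 15 of the 19 genes, where 9.54% of all genes were higher than in een-1 and 10.4% lower. It exceeded ein6-1 in all 19, where 17% of all genes were higher and 18.7% lower. The non-additivity was positive and past the threshold for all 19 genes, beside 7.5% of all genes, and its median was 5.53 on the log2 scale.

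Seed markers as a whole moved with the comparison. Of 9 marker genes of seed, all of them on the list above, 7 were higher and 0 lower, and their summed level was 10600 and 11800 rescaled TPM in ein6-1 een-1 and 2230 and 2100 in Ler. In ein6-1 the sum was 73.0 and 53.5, in een-1 1530 and 3360, and in ein2-45 189 and 309. The age at harvest is the same in the labels; the part of the seed markers in the other results was not tested. With any 1 of the 4 libraries left out, 15 of the 19 list genes were higher and 0 lower.

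Of 16 tested heat shock genes, 8 were higher and 2 lower in ein6-1 een-1, with a median log2 difference of 0.98, beside 17.4% of all genes higher and 19.8% lower. The small heat shock protein gene HSP17.6A had 342 and 453 rescaled TPM in ein6-1 een-1 and 28.6 and 24.6 in Ler (log2 difference 3.84, adjusted p = 4.6e-06), and HSP17.4 had 220 and 288 in ein6-1 een-1 and 21.0 and 19.3 in Ler (log2 difference 3.58, adjusted p = 2.4e-06). In ein6-1 HSP17.6A had 0.786 and 0.307 rescaled TPM, so that the order of the genotypes was that of the seed genes. The chaperone gene HSP90.1 had 24.3 and 28.3 in ein6-1 een-1 and 4.90 and 5.19 in Ler (log2 difference 2.17). HSP101, which dissolves protein aggregates, rose by 1.93 and the heat shock factor gene HSFA2 by 1.24, to 3.91 and 2.72 rescaled TPM in ein6-1 een-1 against 0.938 and 0.693 in Ler. AT2G29500, another small heat shock protein gene, went the other way, with 4.06 and 4.12 rescaled TPM in ein6-1 een-1 and 10.5 and 9.81 in Ler (log2 difference -1.13, adjusted p = 0.0031).

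Genes of photosynthesis, which dark-grown seedlings express at a low level, were lower still in ein6-1 een-1. Of 24 members of the list of photosynthesis and greening 23 were tested, and 20 were lower and 0 higher, with a median log2 difference of -1.70, beside 19.8% of all genes lower. LHCA3, an antenna protein of photosystem I, had 3.69 and 7.13 rescaled TPM in ein6-1 een-1 and 59.4 and 71.9 in Ler (log2 difference -3.43, adjusted p = 5.8e-07). LHCB3, an antenna protein of photosystem II, had 5.66 and 9.51 in ein6-1 een-1 and 64.7 and 83.0 in Ler (log2 difference -3.15, adjusted p = 1.6e-06). RBCS1B, a small subunit gene of the carbon-fixing enzyme Rubisco with close copies, had 6.64 and 13.9 in ein6-1 een-1 and 95.2 and 95.1 in Ler (log2 difference -3.17, adjusted p = 4.7e-06). All 3 had levels that did not overlap between the genotypes, as did 73.3% of all genes tested and all 7663 that passed. CHLH, a subunit of the magnesium chelatase of chlorophyll synthesis, had 1.81 and 2.40 in ein6-1 een-1 and 12.8 and 14.4 in Ler (log2 difference -2.24, adjusted p = 1.1e-06). In these genes replicate 1 of ein6-1 een-1 was lower than replicate 2, by nearly 2-fold in LHCA3 and less in CHLH.

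Of the genes not past the threshold, a pair encodes the transcription factors GLK1 and GLK2 of chloroplast development, with log2 differences of 0.15 (adjusted p = 0.61) and -0.31 (adjusted p = 0.15). PORA, which encodes the protochlorophyllide reductase of dark-grown seedlings, had 187 and 260 rescaled TPM in ein6-1 een-1 and 363 and 400 in Ler (log2 difference -0.79, adjusted p = 0.014), but its call was lost on the TPM as deposited (-0.41), without Ler replicate 2 (-0.72) and without ein6-1 een-1 replicate 1 (-0.55). In ein2-45, where 11.5% of all genes were higher than in Ler, 21 of the 23 were higher, with a median of 1.26, and LHCB3 had 220 and 169 rescaled TPM. Of 5 green tissue markers 0 were higher and 4 lower, and their sum was 680 and 962 rescaled TPM in ein6-1 een-1 and 1450 and 1640 in Ler. RBCS1A made up most of that sum, with 658 and 927 in ein6-1 een-1 and 1230 and 1380 in Ler (log2 difference -0.74). LHCB3 (-3.15), LHCB5 (-3.05) and LHCA1 (-2.29) fell further, and LHCB1.1 (-0.60) did not pass. All 5 markers are members of the list, and the part of this sum in the result was not tested.

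The chlorophyll breakdown genes NYE1 and NYE2 rose, on a senescence list of 9 tested genes with a median log2 difference of 0.08. Of the 9, 4 were higher and 3 lower (4 and 0 on the TPM as deposited), beside 17.4% of all genes higher and 19.8% lower. NYE2 had 52.2 and 49.4 rescaled TPM in ein6-1 een-1 and 10.6 and 7.93 in Ler (log2 difference 2.35, adjusted p = 1.3e-06), and NYE1 had 19.4 and 18.4 in ein6-1 een-1 and 7.41 and 8.28 in Ler (log2 difference 1.17). Both encode proteins that start the removal of magnesium from chlorophyll. NYE2 was lower than Ler in ein6-1 (-1.53), again in the order of the seed genes.

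**Figure D4:**
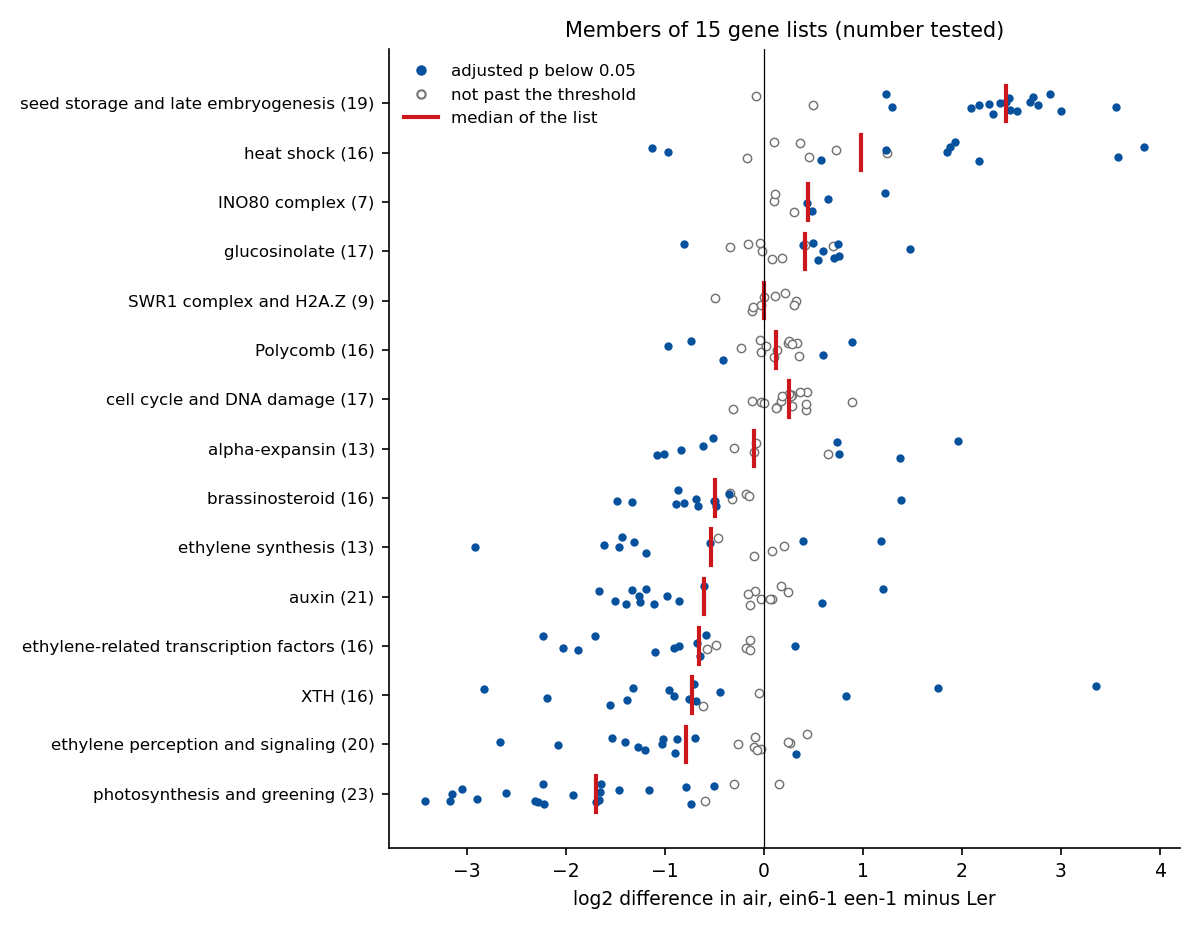
Log2 difference between ein6-1 een-1 and Ler in air (x axis) for the tested members of 15 gene lists (rows, with the number tested), where filled points passed an adjusted p of 0.05 and the red bar is the median of the list. Medians run from 2.45 for seed storage and late embryogenesis to -1.70 for photosynthesis and greening.

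Genes of cell wall loosening and growth changed in both directions. XTH enzymes cut and rejoin xyloglucan in the wall. Of 16 XTH genes 3 were higher and 11 lower, beside 17.4% of all genes higher and 19.8% lower. Their median log2 difference was -0.73. On the TPM as deposited 3 were higher and 7 lower, with a median of -0.35. XTH4, the most abundant of those named here, had 780 and 795 rescaled TPM in ein6-1 een-1 and 2260 and 2380 in Ler (log2 difference -1.56, adjusted p = 4.5e-06). XTH26 had 10.0 and 7.89 in ein6-1 een-1 and 75.3 and 63.4 in Ler (log2 difference -2.83, adjusted p = 1e-06), and TCH4 had 12.7 and 17.6 in ein6-1 een-1 and 29.3 and 31.1 in Ler (log2 difference -0.96, adjusted p = 0.00098). XTH25 rose, to 206 and 235 rescaled TPM in ein6-1 een-1 against 23.6 and 18.0 in Ler (log2 difference 3.36, adjusted p = 1.4e-06). XTH25 was lower than Ler in ein6-1 (-4.09), so that it too followed the order seen in seed genes.

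Of 13 alpha-expansins, which loosen walls at low pH, 4 were higher and 5 lower, beside 17.4% and 19.8% of all genes. On the TPM as deposited 5 were higher and 3 lower, and their median log2 difference of -0.10 turned to 0.27. EXPA2 had 212 and 203 rescaled TPM in ein6-1 een-1 and 56.5 and 49.1 in Ler (log2 difference 1.96, adjusted p = 9.3e-05). EXPA8 had 226 and 243 in ein6-1 een-1 and 482 and 516 in Ler (log2 difference -1.09, adjusted p = 2.6e-05).

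Brassinosteroid genes were mostly lower, with 11 of 16 lower and 1 higher and a median of -0.50; on the TPM as deposited 3 were lower and the median was -0.13, and 7 were lower without Ler replicate 1 or without ein6-1 een-1 replicate 2. Over all genes tested 19.8% were lower and 17.4% higher. BES1, a transcription factor of the brassinosteroid response, had 41.7 and 36.3 rescaled TPM in ein6-1 een-1 and 105 and 116 in Ler (log2 difference -1.48, adjusted p = 1.2e-06). CYP90D1, a brassinosteroid biosynthesis enzyme, rose to 8.67 and 8.42 in ein6-1 een-1 against 2.80 and 2.53 in Ler (log2 difference 1.38, adjusted p = 0.00014).

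Of 21 auxin genes 2 were higher and 11 lower, with a median of -0.61, beside 17.4% of all genes higher and 19.8% lower. On the TPM as deposited 4 were higher and 9 lower, with a median of -0.23. The auxin response repressor gene IAA19 had 143 and 155 rescaled TPM in ein6-1 een-1 and 391 and 394 in Ler (log2 difference -1.39, adjusted p = 2.2e-06). IAA3, of the same family, had 116 and 102 in ein6-1 een-1 and 274 and 279 in Ler (log2 difference -1.34). GH3.5, which conjugates auxin to amino acids, had 26.0 and 24.2 in ein6-1 een-1 and 73.1 and 73.3 in Ler (log2 difference -1.51, adjusted p = 1.2e-05).

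Glucosinolate genes, which make sulfur-rich defence compounds, were 8 higher and 1 lower of 17 tested, with a median of 0.41, beside 17.4% of all genes higher. Without ein6-1 een-1 replicate 1 the count was 5 higher and 1 lower, and on the TPM as deposited 11 higher and 0 lower with a median of 0.77. CYP79B2, which turns tryptophan into indole-3-acetaldoxime, had 193 and 187 rescaled TPM in ein6-1 een-1 and 65.8 and 69.2 in Ler (log2 difference 1.48, adjusted p = 2.8e-06). Of 14 defence genes 5 were lower and 0 higher, with a median of -0.03, beside 19.8% of all genes lower. On the TPM as deposited 3 were lower and 2 higher. EDS1, a hub of resistance signaling, had 7.98 and 6.52 in ein6-1 een-1 and 14.8 and 17.0 in Ler (log2 difference -1.04, adjusted p = 9.7e-05), and PR4, a chitin-binding protein, had 86.8 and 67.7 in ein6-1 een-1 and 161 and 170 in Ler (log2 difference -1.10, adjusted p = 4.8e-05).

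Among genes for chromatin proteins, 4 of 7 of the INO80 complex were higher and 0 lower, beside 17.4% of all genes higher. Their median was 0.44 (6 higher and a median of 0.80 on the TPM as deposited). INO80, the ATPase itself, had 28.6 and 26.2 rescaled TPM in ein6-1 een-1 and 9.96 and 12.4 in Ler (log2 difference 1.22, adjusted p = 0.00035); it was also higher than Ler in een-1 (0.93) but not past the threshold in ein6-1 (0.18). ARP5 (0.30, adjusted p = 0.11) did not pass. Of 9 genes of the SWR1 complex, which deposits H2A.Z, and of H2A.Z itself, 0 passed in the limma fit, although 1 was higher and 1 lower at an unadjusted p below 0.05 and 2 were higher on the TPM as deposited: PIE1 had a log2 difference of 0.33 (adjusted p = 0.28) and HTA11 of -0.49 (adjusted p = 0.08). Among 16 Polycomb genes 2 were higher and 3 lower, beside 17.4% of all genes higher and 19.8% lower, and on the TPM as deposited 5 were higher and 0 lower. RING1A, which encodes a ubiquitin ligase of histone H2A, rose to 7.28 and 7.62 in ein6-1 een-1 against 3.75 and 3.40 in Ler (log2 difference 0.89, adjusted p = 0.00046), and its paralog RING1B fell to 1.83 and 2.70 in ein6-1 een-1 against 5.46 and 5.20 in Ler (log2 difference -0.97, adjusted p = 0.0015; -0.67 and not past the threshold on the TPM as deposited).

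In the remaining lists the counts are to be read beside the 17.4% of all genes higher and 19.8% lower. Of 15 flowering time genes 2 were higher and 2 lower; the flowering activator gene SOC1 had 4.87 and 3.76 rescaled TPM in ein6-1 een-1 and 1.48 and 1.05 in Ler (log2 difference 1.23, adjusted p = 0.0013), and the repressor gene FLC did not pass (-0.14). Of 8 flavonoid genes 2 were higher and 0 lower, and of 9 clock genes 2 were higher and 2 lower. Of 17 root hair genes 2 were higher and 1 lower, of 8 hypoxia genes 0 were higher and 1 lower, and of 7 KNOX and CUC genes of the shoot tip 0 were higher and 1 lower. Of 17 cell cycle and DNA damage genes 0 passed in the limma fit; 4 were higher at an unadjusted p below 0.05, and 7 were higher on the TPM as deposited. That setting also gave 4 higher and 0 lower flowering time genes, 3 and 0 of the clock, 3 and 0 of hypoxia, 1 and 0 of KNOX and CUC, and 2 and 0 of the root markers. Of 6 tested root markers 1 was higher and 2 lower, with sums over all 8 markers of 6950 and 6920 rescaled TPM in ein6-1 een-1 and 9850 and 9700 in Ler. PYK10 made up most of these sums, with 6680 and 6630 in ein6-1 een-1 and 9410 and 9280 in Ler. It did not pass in the limma fit (log2 difference -0.49, adjusted p = 0.071). Pollen markers were at or near 0.

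The largest differences were not from the lists alone. Among the increases, IPS1, a non-coding RNA of phosphate starvation, had 50.8 and 36.7 rescaled TPM in ein6-1 een-1 and 1.78 and 0.603 in Ler (log2 difference 4.39, adjusted p = 6.1e-07); in een-1 it was 1.5 above Ler on the log2 scale. AT1G24580 had 83.1 and 69.4 in ein6-1 een-1 and 5.69 and 3.88 in Ler (log2 difference 3.75). AGL67, a MADS-box transcription factor gene, had 118 and 122 in ein6-1 een-1 and 11.6 and 10.0 in Ler (log2 difference 3.36). HSP17.6A, HSP17.4, EM6 and XTH25 were also among the 15 largest increases.

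Among the decreases, AT5G57760 had 0.534 and 1.13 rescaled TPM in ein6-1 een-1 and 64.3 and 60.9 in Ler (log2 difference -5.14, adjusted p = 1.6e-09). AZI1, a lipid transfer-like protein of systemic immunity, had 4.24 and 3.96 in ein6-1 een-1 and 136 and 119 in Ler (log2 difference -4.65, adjusted p = 1.6e-07), and the log2 difference of ein2-45 from Ler was -4.59. CAB1, a light-harvesting gene with near-identical copies, had 6.36 and 13.1 in ein6-1 een-1 and 198 and 239 in Ler (log2 difference -4.42). LOG5, an enzyme that activates cytokinins, had 1.32 and 2.11 in ein6-1 een-1 and 25.7 and 29.4 in Ler (log2 difference -3.41, adjusted p = 2e-08).

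Of the largest decreases, 2 genes were already low in both single mutants. SADHU3-2, a retroelement, had 3.27 and 2.68 rescaled TPM in ein6-1 een-1 and 77.5 and 60.4 in Ler (log2 difference -4.13, adjusted p = 3.5e-08), and lay below Ler by 3.79 in ein6-1 and 5.43 in een-1 on the log2 scale. AT4G19950 had 0 and 0.112 in ein6-1 een-1 and 14.3 and 14.4 in Ler (log2 difference -3.86, adjusted p = 2e-08), with log2 differences from Ler of -2.97 in ein6-1 and -3.45 in een-1.

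At 0.1 TPM or less in both libraries of 1 genotype and 5 TPM or more in both of the other, a pair of genes was left, both variable between replicates. RTFL13 (At3g23635, chr3:8497679-8498390) was listed at 0 in both ein6-1 een-1 libraries in air and had 97.4 and 23.9 rescaled TPM in Ler, but it had 11.4 and 40.5 in ein6-1 een-1 after ET. SNOR77, a small nucleolar RNA, had 17.5 and 29.7 in ein6-1 een-1 and was listed at 0 in Ler. In een-1 each gene was at 0 in 1 library and above 10 in the other, and the calls of both (adjusted p = 0.022 and 0.037) were lost when single libraries were left out: that of RTFL13 without Ler replicate 1 or either ein6-1 een-1 library, and that of SNOR77 without any of the 4.

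Lists of genes at which the study's chromatin data differed were read against the RNA. They come from the study's ChIP-seq and DNA methylation libraries, not from these RNA libraries, and were chosen by the authors; the chromatin data themselves were not analysed here. Of 46 tested genes that gained H3K27me3 in ein6-1 een-1 over ein6-1, 1 was higher and 19 (41.3%) lower in ein6-1 een-1 than in Ler, with a median log2 difference of -0.33, where 19.8% of all genes were lower. The lowest was CDPK9, a calcium-dependent kinase gene, with 0.771 and 1.26 rescaled TPM in ein6-1 een-1 and 15.1 and 15.5 in Ler (log2 difference -3.02, adjusted p = 1e-08), followed by EIN2. NAC001 (-1.91) and EDF3 (-1.71) were also lower. Of 13 tested genes that gained H2A.Z over een-1, 5 were lower and 1 higher: besides EIN2 these included AGL18, a MADS-box gene with 1.88 and 1.29 in ein6-1 een-1 and 9.17 and 12.1 in Ler (log2 difference -2.16, adjusted p = 3e-06), and OPR3, an enzyme of jasmonate synthesis (-1.01). AGL18 was lower than Ler in ein6-1 too (-2.50).

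The activating mark H3K4me3 had the list with the largest share of genes lower. Of 401 tested genes with less H3K4me3 in ein6-1 een-1 than in Ler, 288 (71.8%) were lower and 19 higher in RNA. Over all genes 19.8% were lower and 17.4% higher. The median log2 difference of the list was -0.96. CEL2, a cellulase gene, had 1.04 and 1.55 rescaled TPM in ein6-1 een-1 and 20.8 and 22.5 in Ler (log2 difference -3.31, adjusted p = 1.9e-07). LHCA3, PSAG and AT5G57760 were on this list too. Of 137 tested genes that gained ubiquitinated H2A (H2Aub), 22 (16.1%) were higher and 39 (28.5%) lower, beside 17.4% and 19.8% of all genes. Their median was -0.17. The lowest included BEE3, a bHLH gene, with 4.42 and 2.72 in ein6-1 een-1 and 28.5 and 29.9 in Ler (log2 difference -2.75, adjusted p = 3.1e-06), and AGL67 was the highest. Of 59 genes with differentially methylated regions 13 (22%) were higher and 10 (16.9%) lower, beside 17.4% and 19.8% of all genes. Of 919 tested genes among the top-ranked binding targets of EEN 90 were higher and 345 (37.5%) lower, with a median of -0.25. Over all genes 17.4% were higher and 19.8% lower. In een-1 against Ler 51 of the 919 were higher and 215 lower, where 10.7% of all genes were higher and 14% lower. In een-2 against Col-0 16 of 901 were higher and 135 lower, where 3.78% of all genes were higher and 5.28% lower.

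EIN2 stood on 5 of these lists, those of H3K27me3, H2A.Z, H3K4me3, H2Aub and DNA methylation. AAPT2, an enzyme of phospholipid synthesis, stood on 3 (H3K27me3, H2A.Z and H3K4me3) and had 34.3 and 29.8 rescaled TPM in ein6-1 een-1 and 61.6 and 54.9 in Ler (log2 difference -0.84, adjusted p = 0.00019; -0.47 and not past the threshold on the TPM as deposited).

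Over all genes the double mutant differed from the sum of its single mutants in 14.6% of the genes tested: the non-additivity was positive in 1545 genes and negative in 1455. The count of negative genes was 819 without Ler replicate 1, 938 without een-1 replicate 2 and 807 without ein6-1 een-1 replicate 1. Set directly against the single mutants, 35.7% of genes differed between ein6-1 een-1 and the EIN6 single mutant, and 19.9% differed between ein6-1 een-1 and the EEN single mutant. The first share rests on 3491 genes higher and 3859 lower, which were 1995 and 2324 without ein6-1 replicate 1 and 2262 and 2730 without ein6-1 een-1 replicate 2. The second rests on 1965 and 2136, which were 1126 and 1080 without ein6-1 een-1 replicate 1, 1209 and 1319 without een-1 replicate 1, and 1308 and 1342 without een-1 replicate 2. Of the photosynthesis and greening genes 22 of 23 had a negative non-additivity and 0 a positive one, beside 7.07% of all genes negative. Of the ET synthesis genes 6 of 13 were negative and 2 positive, and of the perception and signaling genes 7 of 20 were negative and 0 positive. INO80 (0.11), AQI (-0.41, adjusted p = 0.14) and XTH26 (-0.66, adjusted p = 0.22) did not pass this test.

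The same 2 genotypes were also compared after 4 hr of ET, in libraries that the comparison in air did not use. Higher in ein6-1 een-1 after ET were 3353 genes (16.3%), and lower were 3271 (15.9%), counts that fell to 2181 and 1813 without Ler ET replicate 1. Of the genes higher in air 1623 were higher after ET as well, which is 45.3% of the genes higher in air and 48.4% of those higher after ET, and 20 were lower. Of the genes lower in air 2050 were lower after ET, which is 50.3% of the genes lower in air and 62.7% of those lower after ET, and 264 were higher. EIN2 had a log2 difference of -2.84 after ET, EM6 of 3.66 and HSP17.6A of 4.03.

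Lists differed in how far the ET libraries repeated the values in air. Their counts after ET stand beside 16.3% of all genes higher and 15.9% lower. Of the 19 seed genes 15 were higher and 0 lower, and of the 23 photosynthesis genes 20 were lower and 2 higher, GLK1 (1.09) and GLK2 (0.64). Of the ET-related transcription factor genes 14 of 16 were lower and 1 higher. Of the perception and signaling genes 12 of 20 were lower and 0 higher. ACO4 was further below Ler after ET (-4.75), and RTE1 too (-2.81). Of the ET synthesis genes 5 were higher and 5 lower after ET, and ACS9, low in air, had a log2 difference of 0.14 (adjusted p = 0.68). IAA6, with 28.1 and 32.6 rescaled TPM in ein6-1 een-1 and 67.8 and 81.1 in Ler in air (log2 difference -1.27), was higher in ein6-1 een-1 after ET (1.14, adjusted p = 9.9e-05), and EXPA8 (-1.09 in air) was higher as well (0.41, adjusted p = 0.029). The sums of the seed markers after ET were 8310 and 7830 rescaled TPM in ein6-1 een-1 and 1960 and 2250 in Ler, and those of the green markers 902 and 1080 in ein6-1 een-1 and 2770 and 1780 in Ler. RBCS1A made up most of the green sums, with 851 and 1020 in ein6-1 een-1 and 2390 and 1530 in Ler. The difference between air and ET was not tested for single genes.

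**Figure D5:**
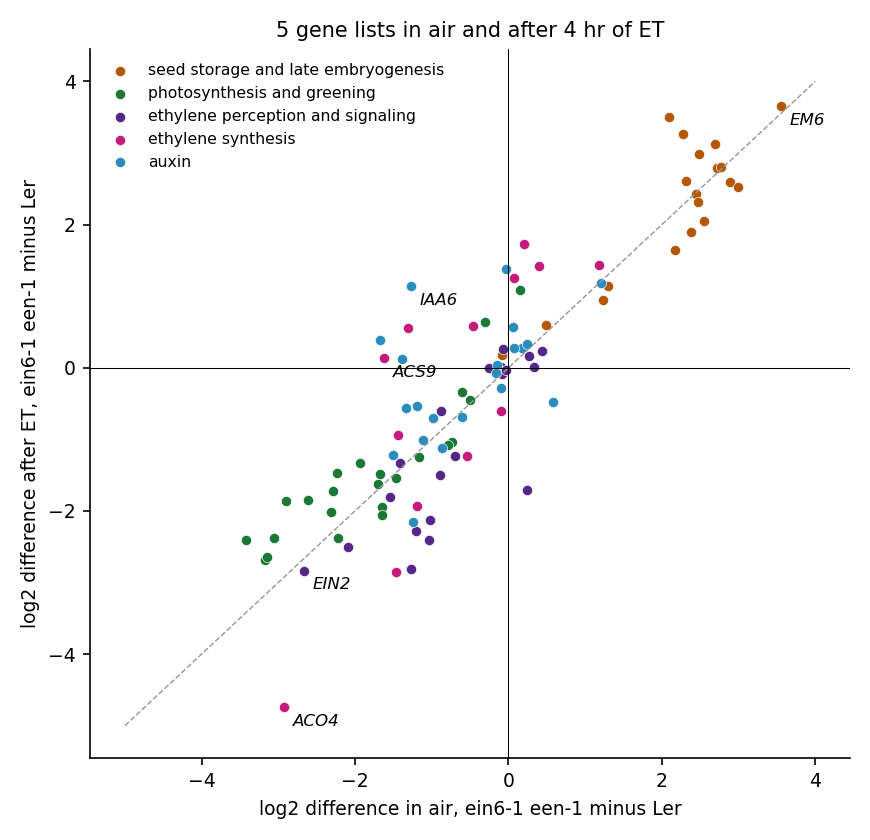
Log2 difference between ein6-1 een-1 and Ler after 4 hr of ET (y axis) against that in air (x axis) for the tested members of 5 gene lists; the dashed line marks equal differences. Seed genes lie above 0 and photosynthesis genes below 0 in both conditions except SESA4, GLK1 and GLK2, while IAA6 lies at -1.27 in air and 1.14 after ET.

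The other allele of EEN, een-2, was measured in Col-0 in a table of its own, where 9.06% of 20152 genes differed, 762 (3.78%) higher and 1064 (5.28%) lower than in Col-0; those counts were 151 and 230 without een-2 replicate 2, 268 and 449 without Col-0 replicate 1, and 194 and 252 without Col-0 replicate 2. Of the 3421 genes higher in ein6-1 een-1 and tested in both tables, 248 were higher in een-2, which is 7.25% of these and 33.1% of the genes higher in een-2, and 87 were lower. Of the 4016 lower genes 527 were lower in een-2, which is 13.1% of these and 51.1% of those lower in een-2, and 77 were higher. Of the 19 seed genes 14 were higher and 0 lower in een-2 (median 2.2), and of 24 photosynthesis genes 18 were lower and 0 higher (median -1.03). EIN2 had a log2 difference of -0.22 in een-2. In een-1 against Ler 1 of 19 seed genes was higher and 0 lower, and 4 of 23 photosynthesis genes were higher and 0 lower. Over all genes in that comparison 10.7% were higher and 14% lower. The 2 alleles were measured in different accessions and tables, so their difference was not tested.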

How the data were processed

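Total RNA of seedlings was sequenced as single reads by the authors, with alignment by STAR 2.6.0c against TAIR10 and gene levels from RSEM 1.3.0. The deposited values are TPM, which sum to 1000000 in each library. Differential expression by the authors used edgeR; tables of fold changes were not used here, and neither were the ChIP-seq and DNA methylation files. A further 4 value columns of the table with een-2 belong to none of its samples and were not used. Positions and sequences come from TAIR10.1, and the gene models from RefSeq.

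The TPM of each library was divided by its median-of-ratios factor, and log2 of rescaled TPM plus 1 was fitted as group means over 20 libraries in 10 groups with limma 3.58.1 (R 4.3.3, variance trend, 10 residual degrees of freedom). The 8 libraries of the second table, in 4 groups, were fitted on their own. A gene was tested if 2 or more libraries reached 1 TPM, with Benjamini-Hochberg adjustment over all of them and a threshold of 0.05. Tables and figures used Python 3.11.15, pandas 2.3.3 and matplotlib 3.10.9. Groups were taken from the sample labels. The SD measures the spread between the 2 libraries of a group. The standard errors come from a variance shared by all groups of a fit and moderated between genes. They do not measure the spread of the compared groups alone, and all of it rests on 2 libraries a group.

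In data simulated for this comparison over 20485 genes, 76 of 100 genes changed by a log2 of 1 and 100 of 100 changed by a log2 of 2 were found, as were 12 of the unchanged ones. Changed genes were few, not weakly expressed and balanced in direction, and the library factors did not follow the genotype. In the real data 37.2% of genes were called, so these rates do not carry over to it.

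The members, the gene lists and the tests were chosen with earlier results of these data known, so no list is independent evidence of its direction. Named genes are those the study names, the 15 largest changes in each direction past the threshold with libraries that do not overlap and a mean of at least 5 rescaled TPM, the 10 largest values of the non-additivity in each direction on the same terms, list members given as examples (the largest changes and the defining genes), members of the chromatin lists past the threshold, genes between AQI and EEN, and genes listed in 1 genotype only. The gene lists of H3K27me3, H2A.Z, H3K4me3, H2Aub, DNA methylation and EEN binding are gene names from the supplements of the study. Alternatives were no rescaling, rescaling without rRNA and organelle genes, other minimums and pseudocounts, fewer groups in the fit and a replicate block. Replicate 2 of ein6-1 after ET was left out as well, and each library of a compared group in turn. Some members of the lists are counted but not reported by name here.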

Additional observations from a re-analysis of the deposited data

Results flagged for a closer look

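Whether the een-1 lesion had another effect in ein6-1 than in Ler was tested by the non-additivity, the log2 difference of ein6-1 een-1 from ein6-1 minus that of een-1 from Ler, which is 0 where the effects of both lesions add up, and the results past the threshold are listed here. It was positive in 1545 genes and negative in 1455, and EIN2 had -2.55. The highest values belonged to SESA5 (9.44), CRA1 (8.43), LCR67 (8.04), HSD1 (8.04), AT1G14950 (7.88), CRU3 (7.49), M17 (7.38), PAP85 (7.35), AtMT4b (7.32) and HSP17.6A (7.26). Several of these encode seed proteins, CRA1 and CRU3 being storage globulins. The lowest values belonged to FSD1 (-5.83), an iron superoxide dismutase gene, AT5G57760 (-4.74), CAB1 (-4.72), GRP9 (-4.47), AT2G05510 (-4.31), RBCS1B (-4.30), AZI1 (-4.10), CHLH (-4.05), CA2 (-4.01) and PSAG (-3.90). Of these, CAB1, RBCS1B, CHLH, CA2 and PSAG belong to photosynthesis and chlorophyll synthesis. With 2 libraries a group no test for single outlying libraries was made. Replicate 2 of ein6-1 after ET had 30.3% rRNA and a rescaling factor of 0.6225, and its group had the lowest replicate correlation (0.9756). That library is in no group compared here, but it enters the shared variance. Leaving it out raised the counts of ein6-1 een-1 against Ler in air and of the non-additivity.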

How the results depend on the processing

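On the TPM as deposited, without rescaling, ein6-1 een-1 had 5862 genes higher and 1297 lower than Ler in air, the positive non-additivity was called in 848 genes, and ein6-1 een-1 had 1607 genes lower than ein6-1, 1301 higher and 1378 lower than een-1, 2324 lower than ein2-45 and 2130 lower than Ler after ET; ein6-1 had 385 genes lower than Ler and een-1 had 4343 higher and 540 lower. The log2 differences of DWF4 (0.02) and SCR (0.05) turned positive under that setting, and among 424 named genes 49 calls were lost and 34 gained. With only the compared groups in the fit, ein6-1 had 344 genes higher and 539 lower than Ler. Genes listed in 1 genotype only numbered 4 in Ler and 4 in ein6-1 een-1 at a limit of 0.5 TPM in place of 0.1, and 8 and 9 at a minimum of 2 TPM in place of 5.

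With each library left out in turn, genes higher and lower numbered 2281 to 2489 and 2867 to 2973 for ein6-1 een-1 against Ler in air, 1063 to 1467 and 807 to 1158 for the non-additivity, 1995 to 3292 and 2324 to 3536 against ein6-1, 1126 to 1365 and 1080 to 1546 against een-1, 2333 to 3112 and 2900 to 3662 against ein2-45, and 2181 to 3012 and 1813 to 3018 against Ler after ET. The ranges were 164 to 399 and 362 to 747 for ein6-1 against Ler, 656 to 1347 and 1094 to 1962 for een-1 against Ler, and 151 to 696 and 230 to 909 for een-2 against Col-0. Other settings left the counts for ein6-1 een-1 against Ler in air within 1.5 times the reported ones.

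With the replicate block the counts for ein6-1 een-1 against Ler in air were 3645 and 4217, and for the non-additivity 1592 and 1595; among named genes 4 calls were gained and 0 lost. The labels of the replicates share only a number. Across genes, the replicate deviations of ein6-1 een-1 and of Ler in air correlated at -0.067. A single value for these groups cannot decide whether same-numbered libraries were handled together. Without counts the depth behind low values is unknown, and 2 libraries a group limit each comparison.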
